A study of Mus musculus with 23 samples.

Results

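The OVA challenge in offspring of PM2.5-exposed dams was examined by comparing the 4 PM-OVA lung libraries with the 7 PM lung libraries, 11 of the 23 RNA-Seq libraries of the series. All 11 came from dams that had received fine particulate matter (PM2.5), so both groups share the maternal exposure and differ in the OVA treatment. Libraries were selected by the maternal exposure and challenge given in their labels, without use of any measured value. Genes were tested if they reached at least 0.5 RPM (the reads of a gene relative to the depth of its library) in at least 4 of the 11 libraries, which kept 16077 of the 35322 genes listed.

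The mice were female Balb/c offspring at 13 weeks of age. Their dams were given PM2.5 suspended in saline into the nose before mating and on through gestation and lactation. PM-OVA offspring were sensitised to ovalbumin (OVA, the egg-white protein used as allergen) with aluminium hydroxide by intraperitoneal injection, then challenged with OVA aerosol to induce allergic airway disease (AAD), and lungs were collected on the day after the last challenge. PM offspring served as the unchallenged controls, which the labels describe as PBS-treated and the study's methods as exposed to nebulised saline. Whether these controls were also sensitised was not clear from the sources used here. The study reports that the lungs sequenced had first undergone lung function testing, which used nebulised methacholine under anaesthesia. Its methods place the lavage of the airways right after that test. The tissue is labelled lung with the abbreviation RML, whereas the methods name the right lower lobe. Which litter each offspring came from was not given in the sources used here, so p-values measure the spread between libraries, and litter mates within a group cannot be told apart from unrelated offspring. Offspring of saline dams, without challenge (Sham, 7 libraries) and with it (Sham-OVA, 5 libraries), were used only to ask whether the response differed with the maternal exposure.

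Inhaled allergen in a sensitised animal draws type 2 helper T cells, whose interleukins act through the receptor subunit Il4ra and the transcription factor STAT6 in airway epithelium and macrophages. Epithelial cells turn to mucus secretion and release eosinophil-attracting chemokines, macrophages take on an alternatively activated state with secretion of RELM and chitinase-like proteins, and B cells mature into antibody-secreting plasma cells. Alveolar epithelium, capillary endothelium and fibroblasts make up most of the resting lung.

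The PM libraries held 13089691 to 17393579 reads on genes, and PM-OVA replicates 1 to 4 held 12355561, 11073754, 5922469 and 4324326. One read was therefore worth at most 0.0688 RPM in PM, against 0.133 and 0.182 RPM in PM-OVA replicates 3 and 4, where low genes are known least precisely. Replicate libraries correlated across genes with r of 0.971 to 0.992 in PM and 0.887 to 0.975 in PM-OVA. Lung markers were abundant, with Sftpc (surfactant protein C) at 8486 to 18493 (median 9306) RPM in PM, and the female label held in all 11 libraries, with Xist at no less than 207 RPM. PM replicate 5 stood apart from the other PM libraries, with 13 of 15 capillary endothelial genes at their lowest and 19 of 19 mitosis genes at their highest value in that library. Over all 16077 genes it held the lowest PM value for 4749 and the highest for 4174, more than any other PM library. PM replicate 1 held the highest PM value of several airway mucus genes, and values without these libraries are given beside several such results.

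The levels were analysed as log2(RPM + 0.5) with limma, so a log2 fold change understates the change of a low gene, and p-values were adjusted by the Benjamini-Hochberg method over the 16077 genes. At the study's threshold (an adjusted p under 0.000001, with a log2 fold change beyond 1 in size), 43 genes rose in PM-OVA (0.267% of the genes tested) and 4 fell (0.0249%). Leaving out 1 library moved the count of 47 to 493 without PM-OVA replicate 1 and to between 15 and 25 without each of the others. The split into rises and falls moved with it, to 169 and 324 genes without PM-OVA replicate 1, 263 and 285 with all 23 libraries in one fit, 556 and 2226 with array weights and 1758 and 1086 with DESeq2 on the recovered reads. For gene groups a call needed an adjusted p under 0.05 and the same fold change. By that rule 1598 genes rose (9.94%) and 4694 fell (29.2%), so 25.4% of the calls were rises, and these shares are the background for each group below. For counts given without PM-OVA replicate 1 the background is 1895 higher and 5806 lower of 16077 genes. Without PM replicate 5 it is 1637 higher and 4777 lower. All 4 PM-OVA libraries lay above all 7 PM libraries for 13.5% of genes and below them for 29.5%.

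The balance between rises and falls depended on how libraries were scaled. The deposited values summed to 881960 to 913012 RPM over the listed genes in PM and to 785172 to 855819 RPM in PM-OVA, so they were scaled to a total beyond the reads on genes, and PM-OVA values are lower against PM than with scaling to reads on genes, which gave 1900 rises and 4091 falls. On the RPM scale the median log2 fold change of all genes was -0.45, and with median-of-ratios scaling it was -0.11, with 2605 rises (16.2%) and 3158 falls (19.6%), or 45.2% rises. After a trend with transcript length and GC content had been removed, 2222 of 15838 genes rose and 2181 fell. For lists with at least 2 falls the counts after median-of-ratios scaling and after removal of this length trend are therefore given below, higher genes before lower ones unless stated. In bulk tissue, fewer cells of a type and less RNA per cell cannot be told apart.

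**Figure D1:**
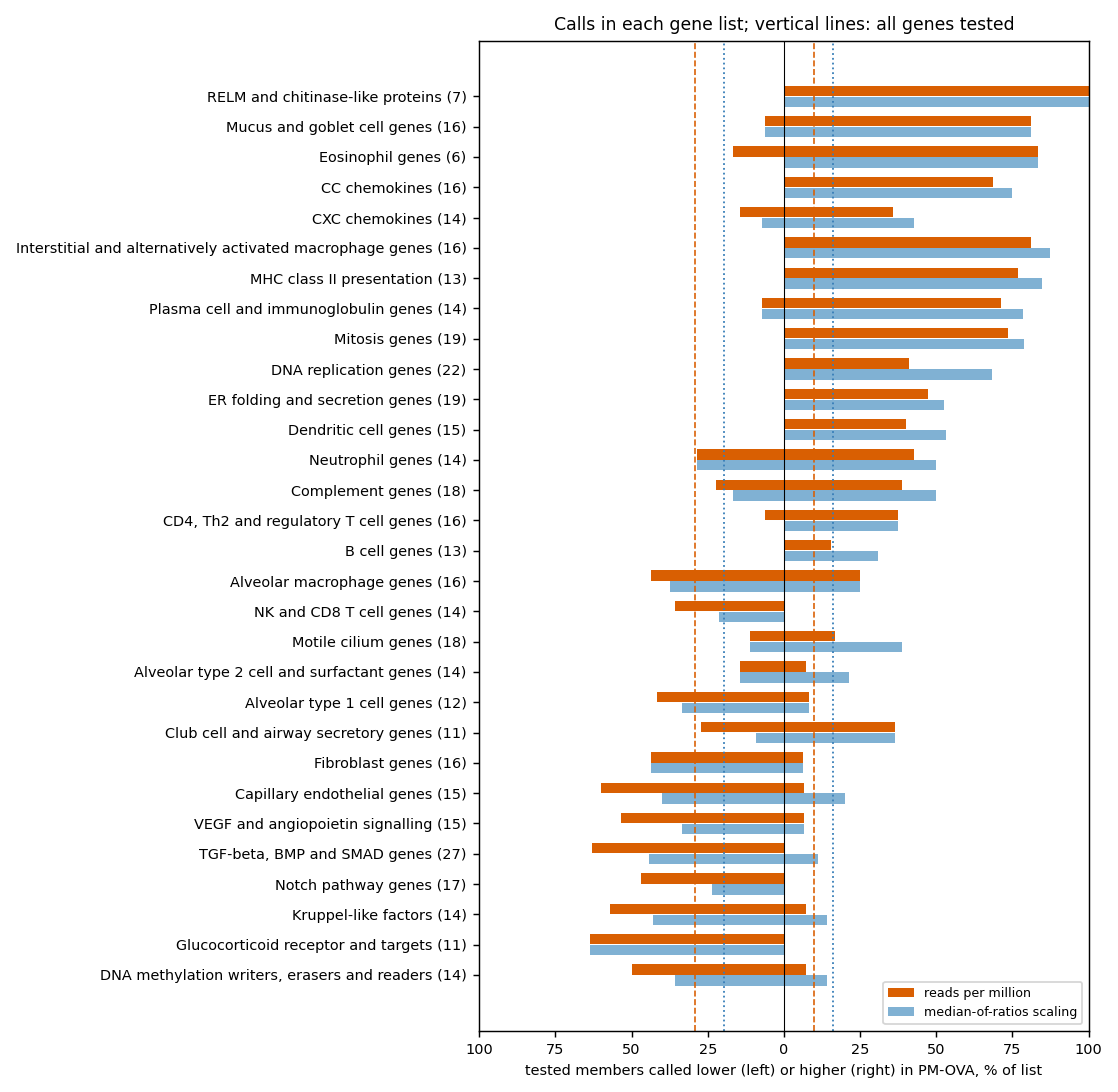
Share of the tested members of each gene list (number in brackets) called lower (left) or higher (right) in PM-OVA than in PM, in percent of the list, on the RPM scale (orange) and after median-of-ratios scaling (blue). Vertical lines mark the same shares over all genes tested, 29.2% lower and 9.94% higher on the RPM scale (dashed) and 19.6% and 16.2% after median-of-ratios scaling (dotted). All 7 RELM and chitinase-like genes tested were called higher, and the bars of the capillary endothelial, TGF-beta and Notch lists shorten on the left with median-of-ratios scaling.

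Transcripts of the type 2 interleukins themselves were scarce. Il13, the interleukin that drives mucus secretion, was read at 0.806, 1.31, 0 and 0.908 RPM in PM-OVA replicates 1 to 4 and at no more than 0.114 RPM in any PM library, and like Il4 and Il5 it did not reach the level required for testing. Of 12 cytokines and alarmins listed, 4 were tested and 1 rose. Il10, an interleukin that restrains inflammation, stood at 2.22, 2.40, 6.24 and 6.54 RPM in PM-OVA against 0 to 0.461 (median 0.102) RPM in PM, log2 fold change 2.79 ± 0.30 (SE), adjusted p = 2.75e-05. All PM-OVA libraries lay above all PM libraries, and replicates 3 and 4 were the highest. Il33, an epithelial alarmin and the most abundant of the 4 by RPM, measured 144, 132, 97.8 and 108 RPM in PM-OVA and 59.9 to 119 (median 81.4) RPM in PM, and its log2 fold change of 0.55 did not reach the fold required for a call. Among 11 receptor genes 2 rose and 1 fell, the one that fell being Il13ra1, a subunit of the type II interleukin 4 receptor (49.6, 43.7, 19.1 and 22.0 RPM in PM-OVA, 58.2 to 74.1 (median 64.1) RPM in PM, log2 fold change -1.07 ± 0.24 (SE), adjusted p = 0.00178). Its fall did not reach 1 on the log2 scale without PM-OVA replicate 3 or 4 (-0.84 and -0.90) or after median-of-ratios scaling (-0.68).

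CC chemokines rose as a group. Of the 16 tested, 11 rose and 0 fell, with a median log2 fold change of 2.01 against -0.45 over all genes, and 12 rose after median-of-ratios scaling. Ccl8, which attracts type 2 helper T cells and eosinophils (chromosome 11, 82115185 to 82116799 of GRCm38), measured 353, 309, 291 and 442 RPM in PM-OVA replicates 1 to 4 and 0.672 to 2.88 (median 0.987) RPM in PM. Every PM-OVA library lay far above the highest PM library, with log2 fold change 7.69 ± 0.27 (SE), adjusted p = 1.01e-08. The eosinophil chemokine eotaxin, Ccl11, stood at 61.2, 77.7, 87.8 and 94.1 RPM in PM-OVA and 1.41 to 3.16 (median 1.99) RPM in PM, log2 fold change 4.94 ± 0.22 (SE), adjusted p = 2.34e-08. Its partner Ccl24, eotaxin-2, stood at 33.8, 52.4, 47.3 and 107 RPM and 0.922 to 3.36 (median 1.72) RPM, log2 fold change 4.70 ± 0.33 (SE), adjusted p = 1.03e-06. The groups did not overlap for either gene, and both were even across PM-OVA apart from Ccl24 in replicate 4. Ccl9, a myeloid chemokine already present in PM lung at 22.8 to 37.7 (median 29.7) RPM, reached 264, 339.7, 268 and 287 RPM in PM-OVA, log2 fold change 3.28 ± 0.14 (SE), adjusted p = 1.65e-08. Ccl6, also a myeloid chemokine, measured 578, 594, 271 and 233 RPM against 166 to 219.9 (median 213) RPM, and its log2 fold change of 0.93 passed 1 after median-of-ratios scaling (1.32). The dendritic cell chemokines Ccl17 and Ccl22, which act on Ccr4 of T cells, rose by 1.68 and 1.96 on the log2 scale (adjusted p = 0.002 and 0.00011). Ccl19, Ccl21a and Ccl27a are listed at 0 in all 11 libraries.

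CXC chemokines moved less evenly, with 5 of 14 higher and 2 lower (6 and 1 after median-of-ratios scaling, 5 and 1 after removal of the length trend). Cxcl9, an interferon-induced attractant of T cells, rose from 0.205 to 1.04 (median 0.512) RPM to 3.43, 2.70, 1.46 and 3.99 RPM in replicates 1 to 4, log2 fold change 1.61 ± 0.29 (SE), adjusted p = 0.000543. The 2 that fell were Cxcl12, a stromal chemokine for lymphocytes and progenitors (303, 247, 149 and 145 RPM in PM-OVA, 288 to 627 (median 465) RPM in PM, log2 fold change -1.22 ± 0.25 (SE), adjusted p = 0.00101), and Ppbp, a platelet chemokine (-1.92 on the log2 scale, adjusted p = 0.00537). Cxcl15, made by lung epithelium, overlapped between groups (2556, 1687, 825 and 660.2 RPM against 1587 to 2598 (median 1791) RPM), with replicate 1 at the top and replicate 4 at the bottom. After median-of-ratios scaling the fold change of Cxcl12 was -0.83, below the size needed for a call.

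The mucus programme of goblet cells showed large rises. Of its 16 genes 13 rose and 1 fell, with a median log2 fold change of 3.75. Clca1, a secreted metalloprotease that shapes airway mucus (chromosome 3, 145003817 to 145032776), measured 1510, 4545, 1893 and 1063 RPM in PM-OVA replicates 1 to 4. In PM it was at most 0.228 RPM in 6 libraries and 178 RPM in PM replicate 1, so the groups did not overlap but 1 control library stood far above the others. Its log2 fold change was 10.54 ± 1.38 (SE, limma adjusted p = 9.32e-05), and without PM replicate 1 it was 11.72 ± 0.33. Fcgbp, an IgG Fc-binding mucus protein, and Fer1l6, a ferlin family gene, were also at their PM maximum in replicate 1, at 16.8 and 5.92 RPM, and their log2 fold changes of 3.59 and 3.80 were 3.98 and 4.23 without it. The counts of this list and of the RELM list below were the same without PM replicate 1. Muc5ac, the gel-forming mucin of goblet cells, stood at 40.4, 135, 83.8 and 43.8 RPM in PM-OVA and 0.205 to 2.13 (median 0.593) RPM in PM, log2 fold change 5.88 ± 0.38 (SE), adjusted p = 7.16e-07. Muc5b, the gel-forming mucin of submucosal glands and resting airways, stood at 145, 463, 313 and 139.8 RPM and 5.32 to 30.3 (median 16.0) RPM, log2 fold change 3.91 ± 0.43 (SE), adjusted p = 3.27e-05. Both mucins were highest in replicate 2, like Clca1, and neither overlapped with PM. Slc26a4, the anion exchanger pendrin, was by contrast even across PM-OVA at 244, 194, 189.6 and 206 RPM, with 0.831 to 10.9 (median 3.05) RPM in PM and log2 fold change 5.68 ± 0.46 (SE), adjusted p = 3.37e-06. Tff1, a trefoil peptide of mucous cells, had no read in any PM library and a mean of 18.3 RPM in PM-OVA, at least 88.6-fold higher than the level of 3 reads in 1 PM library. The gene that fell was Ano1, a calcium-activated chloride channel, at 68.7, 50.5, 22.2 and 16.7 RPM in PM-OVA and 87.2 to 134 (median 104) RPM in PM, log2 fold change -1.60 ± 0.31 (SE), adjusted p = 0.000842.

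RELM and chitinase-like proteins rose without exception, 7 of 7 tested, with a median log2 fold change of 4.52, or 4.92 with the gene absent from PM set at its lower bound. Retnla (RELM alpha, chromosome 16, 48842551 to 48844461) measured 8337, 21861, 17482 and 22248 RPM in PM-OVA replicates 1 to 4 and 10.5 to 133 (median 20.5) RPM in PM. Replicate 1 was the lowest of the challenged libraries and still far above the highest control, with log2 fold change 9.12 ± 0.68 (SE), adjusted p = 1.76e-06. Retnlb (RELM beta), a goblet cell product, had no read in PM and a mean of 14.3 RPM in PM-OVA, at least 69.3-fold higher. Chia1, the acidic mammalian chitinase, stood at 1296, 1478, 1028 and 1200 RPM in PM-OVA and 33.5 to 109 (median 85.7) RPM in PM, log2 fold change 3.98 ± 0.27 (SE), adjusted p = 8.62e-07. Chil1, a chitin-binding protein without enzyme activity, stood at 1983, 2220, 2056 and 1298 RPM and 397 to 904 (median 446) RPM, log2 fold change 1.90 ± 0.23 (SE), adjusted p = 6.53e-05. Both were even across PM-OVA, and all challenged libraries lay above all controls. Chil3 (Ym1) and Chil4 (Ym2), also lectins without enzyme activity, reached 22.6, 34.7, 32.9 and 30.9 RPM and 12.6, 89.0, 41.3 and 26.0 RPM from no more than 0.894 and 0.413 RPM. They are near-identical in sequence, and the division of reads between them is uncertain.

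**Figure D2:**
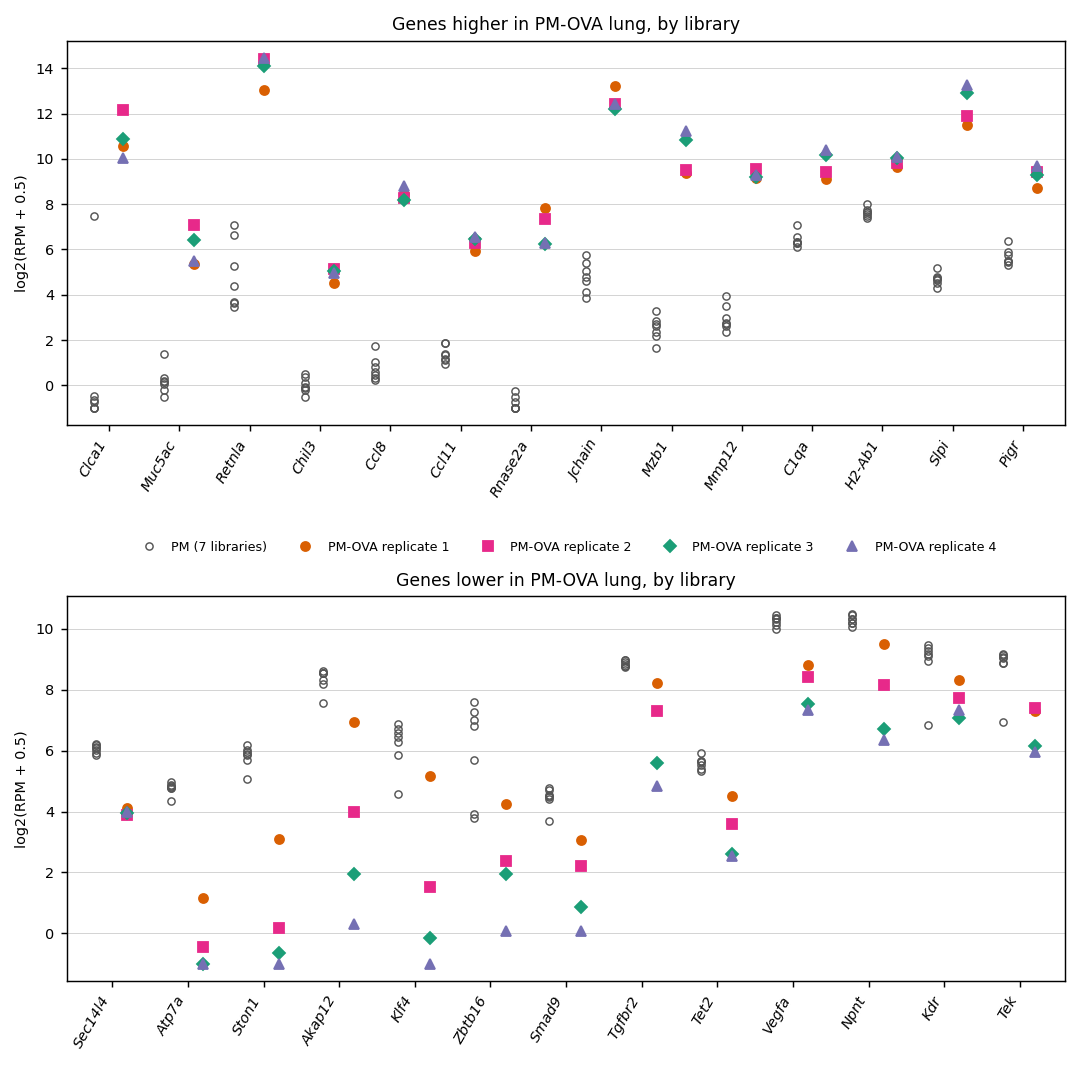
Level of selected genes in each library as log2(RPM + 0.5), for genes higher (top) and lower (bottom) in PM-OVA. Open circles are the 7 PM libraries and filled symbols the 4 PM-OVA libraries. The challenged libraries lie close together for Ccl8, Mmp12 and Sec14l4, whereas for Klf4 and Akap12 they spread widely, with PM-OVA replicate 1 at the top and replicate 4 at or near the bottom, and Clca1 shows PM replicate 1 far above the other controls.

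STAT6 binds palindromes of TTC and GAA separated by 4 bases. These letters were looked for in the 250 bases before each RefSeq start site (GRCm38.p6, both strands, which read alike for this motif). A gene can have several start sites and was counted if any of them had a match. They occurred in 5.85% of 32851 such sequences, in 6.18% of the 1198 higher genes with a sequence and in 5.46% of the 3424 lower genes. Of the 43 genes past the study's threshold, 31 had a sequence and 7 (22.6%) held the motif. A match is a description of these letters and not a binding site. The sequences of Retnla, of the macrophage and dendritic cell genes Pdcd1lg2 and Itgax, and of Acp5 are shown because these genes rose and hold the motif, which is in capitals:
Retnla, chr16:48842359-48842608, forward strand: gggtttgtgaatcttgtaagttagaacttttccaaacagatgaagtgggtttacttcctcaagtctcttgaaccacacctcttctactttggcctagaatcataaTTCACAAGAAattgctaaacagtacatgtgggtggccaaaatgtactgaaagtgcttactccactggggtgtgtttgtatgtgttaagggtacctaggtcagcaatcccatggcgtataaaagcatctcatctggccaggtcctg
Pdcd1lg2, chr19:29410669-29410918, forward strand: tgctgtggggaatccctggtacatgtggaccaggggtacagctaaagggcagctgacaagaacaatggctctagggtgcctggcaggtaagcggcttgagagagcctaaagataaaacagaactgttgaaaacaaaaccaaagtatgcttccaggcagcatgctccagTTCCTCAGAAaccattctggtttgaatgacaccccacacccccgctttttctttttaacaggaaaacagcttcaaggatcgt
Itgax, chr7:128129300-128129549, forward strand: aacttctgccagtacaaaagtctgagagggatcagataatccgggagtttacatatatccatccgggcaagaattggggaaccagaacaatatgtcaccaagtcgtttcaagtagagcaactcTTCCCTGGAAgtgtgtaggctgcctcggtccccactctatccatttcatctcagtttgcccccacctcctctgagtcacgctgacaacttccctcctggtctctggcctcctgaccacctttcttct
Acp5, chr9:22130599-22130848, reverse strand: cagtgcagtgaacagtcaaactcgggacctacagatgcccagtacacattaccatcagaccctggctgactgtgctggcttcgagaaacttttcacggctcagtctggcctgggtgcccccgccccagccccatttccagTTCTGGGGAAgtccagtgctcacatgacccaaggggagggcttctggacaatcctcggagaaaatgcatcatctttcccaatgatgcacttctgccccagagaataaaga

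In Pdcd1lg2 the motif began 82 bases before the start site, in Acp5 110, in Itgax 127 and in Retnla 145. The RefSeq start site of Acp5 lay well inside the gene as annotated by GENCODE (22126727 to 22135711), so its stretch is within the gene. Those of Retnla and Itgax lay just inside theirs. Pdcd1lg2, the PD-1 ligand PD-L2, measured 9.41, 11.1, 6.11 and 9.44 RPM in PM-OVA and 0.235 to 0.825 (median 0.512) RPM in PM, log2 fold change 3.25 ± 0.21 (SE), adjusted p = 6.85e-07. Itgax, which encodes the integrin CD11c of dendritic cells and lung macrophages, measured 175, 214, 161 and 165 RPM and 23.8 to 31.9 (median 25.9) RPM, log2 fold change 2.67 ± 0.14 (SE), adjusted p = 7.64e-08. Acp5, a tartrate-resistant phosphatase of macrophages, measured 104, 122, 117 and 100.05 RPM and 22.0 to 24.9 (median 23.8) RPM, log2 fold change 2.22 ± 0.11 (SE), adjusted p = 5.49e-08. Itgax and Acp5 were even across PM-OVA, Pdcd1lg2 was lowest in replicate 3, and all 3 genes lay outside the PM range in each challenged library. Duox1, Cd209e, Capn9 and Hebp2 were the other genes past the study's threshold with the motif.

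Eosinophil genes were near 0 in PM and present in PM-OVA, 5 of 6 tested being higher. Rnase2a, an eosinophil-associated ribonuclease, measured 229, 161, 74.3 and 77.7 RPM in PM-OVA and at most 0.329 RPM in PM, log2 fold change 7.71 ± 0.31 (SE), adjusted p = 1.08e-08. Prg2, the major basic protein of eosinophil granules, measured 5.11, 5.87, 8.63 and 9.08 RPM and at most 0.26 RPM, log2 fold change 3.68 ± 0.21 (SE), adjusted p = 2.64e-07. Epx, eosinophil peroxidase, had no read in PM and a mean of 1.08 RPM in PM-OVA, at least 5.24-fold higher. The receptors Ccr3 and Il5ra, which receive eotaxin and interleukin 5, rose by 2.71 and 2.47 on the log2 scale. Siglecf, a lectin shared by eosinophils and alveolar macrophages, went the other way, at 4.57, 4.71, 1.59 and 2.00 RPM in PM-OVA and 3.93 to 13.4 (median 8.55) RPM in PM, log2 fold change -1.33 ± 0.33 (SE), adjusted p = 0.00353. Among 10 mast cell and basophil genes 2 rose, the tryptases Tpsb2 and Tpsab1 (1.13 and 1.51), and Kit fell (-1.77, adjusted p = 0.00287), a receptor also made by lung capillary endothelium. Siglecf stood at -0.998 after median-of-ratios scaling, just short of the fold required. The fold change of Tpsb2 came to 0.95 without PM-OVA replicate 1 and 0.98 without PM replicate 5, and that of Kit to -0.92 after removal of the length trend.

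Plasma cell genes rose together, 10 of 14 tested with 1 lower and a median log2 fold change of 1.59. Jchain (chromosome 5, 88519809 to 88527891), which joins IgA and IgM into polymers, measured 9574, 5487, 4651 and 5431 RPM in PM-OVA replicates 1 to 4 and 14.2 to 52.7 (median 27.2) RPM in PM, log2 fold change 7.76 ± 0.33 (SE), adjusted p = 1.65e-08. Replicate 1 was the highest for this gene. Mzb1, a chaperone of antibody-secreting cells, measured 661, 737, 1826 and 2379 RPM and 2.63 to 9.36 (median 5.68) RPM, log2 fold change 7.72 ± 0.37 (SE), adjusted p = 4.81e-08, and was highest in replicates 3 and 4. The annotated gene Gm50318 had nearly the same values as Mzb1 in each library (603, 718, 1817 and 2377 RPM in PM-OVA), and reads shared by both cannot be told apart. Derl3, which helps remove misfolded proteins from the endoplasmic reticulum (ER), measured 103, 85.2, 124 and 138 RPM and 1.53 to 3.17 (median 2.05) RPM, log2 fold change 5.40 ± 0.21 (SE), adjusted p = 1.08e-08. The immunoglobulin light chain gene Iglc2 rose from 2.82 to 5.09 (median 3.48) RPM to 128, 135, 593 and 715 RPM, log2 fold change 6.13 ± 0.44 (SE), adjusted p = 1.24e-06. Heavy chain constant genes and Igkc were not analysed here. Ccr10, the homing receptor of IgA plasma cells, and Pigr, which carries polymeric antibody across epithelium, both passed the study's threshold, at 23.2, 16.9, 71.4 and 63.2 and 419, 679.6, 622 and 813 RPM in PM-OVA against at most 0.55 and 83.0 RPM in PM. Sdc1 (CD138), a plasma cell marker also made by epithelium, fell (-1.42, adjusted p = 0.00321), with 73.2, 38.9, 18.5 and 14.9 RPM in PM-OVA and 68.3 to 113 (median 78.3) RPM in PM. Of 13 B cell genes 2 rose, Cd79b and Fcrla (1.62 and 1.84), while Ms4a1 (CD20) overlapped between groups at 56.8, 30.2, 22.4 and 37.4 RPM and 10.4 to 41.2 (median 29.5) RPM.

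Genes of ER folding and secretion rose in 9 of 19 tested, with 0 lower (9 and 2 without PM-OVA replicate 1). Manf, an ER stress-induced secreted protein, rose from 76.4 to 211 (median 118) RPM to 397, 593, 976 and 1390 RPM, log2 fold change 2.67 ± 0.34 (SE), adjusted p = 7.80e-05. Pdia6, a disulphide isomerase, rose from 168 to 288 (median 238) RPM to 475, 669, 837 and 1319 RPM, log2 fold change 1.76 ± 0.25 (SE), adjusted p = 0.00013. Both increased over PM in each challenged library and were highest in replicate 4. The abundant chaperones Hspa5 and Hsp90b1 overlapped between groups, with 1435, 771, 328 and 538 and 1167, 508, 258 and 436 RPM in PM-OVA, and in both the highest library was replicate 1. The ER stress element, CCAAT and CCACG separated by 9 bases on either strand, occurred before 0.113% of the 32851 starts and before 6 of 16 ER genes with a sequence, 2 of 7 that rose and 4 of 8 not called. The sequences before Derl3 and Creld2, which rose, are shown with the element in capitals, there reading on the reverse strand:
Derl3, chr10:75893148-75893397, forward strand: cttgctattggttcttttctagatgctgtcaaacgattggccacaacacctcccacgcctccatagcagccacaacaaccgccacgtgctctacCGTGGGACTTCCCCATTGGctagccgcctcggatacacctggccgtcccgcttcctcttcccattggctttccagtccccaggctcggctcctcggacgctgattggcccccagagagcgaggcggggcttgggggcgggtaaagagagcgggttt
Creld2, chr15:88819396-88819645, forward strand: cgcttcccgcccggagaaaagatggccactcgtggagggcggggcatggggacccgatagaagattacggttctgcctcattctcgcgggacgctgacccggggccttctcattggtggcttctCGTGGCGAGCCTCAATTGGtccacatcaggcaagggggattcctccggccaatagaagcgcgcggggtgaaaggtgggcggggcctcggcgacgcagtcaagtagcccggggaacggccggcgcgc

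The element began 156 bases before the start of Derl3 and 126 bases before that of Creld2, an ER-resident protein of folding stress (181, 155, 91.2 and 152 RPM in PM-OVA, 26.3 to 62.3 (median 38.1) RPM in PM, log2 fold change 1.80 ± 0.25 (SE), adjusted p = 0.000121). Hspa5 and Hsp90b1 hold the element as well and were not called.

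Macrophage genes of the interstitial and alternatively activated type rose, 13 of 16 with 0 lower and a median log2 fold change of 1.84. Mmp12, macrophage elastase, measured 573, 761, 587 and 616 RPM in PM-OVA and 4.58 to 14.7 (median 6.32) RPM in PM, log2 fold change 6.32 ± 0.26 (SE), adjusted p = 1.29e-08. Arg1, the arginase of alternatively activated macrophages, measured 55.4, 45.3, 15.7 and 15.1 RPM and 0.883 to 2.13 (median 1.25) RPM, log2 fold change 3.89 ± 0.36 (SE), adjusted p = 8.69e-06. Mmp12 was even across the challenged libraries, whereas Arg1 was higher in replicates 1 and 2 than in 3 and 4. The complement chains C1qa and C1qc, made by macrophages, reached 549, 694, 1159 and 1328 RPM and 362, 359, 413 and 467 RPM from at most 134 and 87.0 RPM, with log2 fold changes of 3.36 and 2.97 (adjusted p = 1.63e-06 and 7.63e-07). Csf1r, the growth factor receptor that all these cells need, lay on both sides of the PM range, at 201, 147, 78.9 and 69.0 RPM against 95.2 to 115 (median 106) RPM.

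Alveolar macrophage genes went both ways, with 4 of 16 higher and 7 lower (4 and 6 after median-of-ratios scaling, 5 and 6 after removal of the length trend). The rises included Itgax, described above, and Car4, a carbonic anhydrase of capillary endothelium and alveolar macrophages (1.18, adjusted p = 0.0237). Cidec, a lipid droplet protein, fell from 6.46 to 18.6 (median 10.2) RPM to 2.69, 2.70, 0.266 and 0.363 RPM, log2 fold change -2.80 ± 0.43 (SE), adjusted p = 0.000226. Of 12 monocyte genes 0 rose and 1 fell, Treml4, a receptor of patrolling monocytes (-1.44, adjusted p = 0.000916). Neutrophil genes were higher in 6 of 14 and lower in 4, a share of falls near that of all genes (7 and 4 after median-of-ratios scaling, 6 and 4 after removal of the length trend). Those that rose included Lcn2 and Ltf, iron-binding proteins also secreted by airway epithelium, at 286, 393, 624 and 331 and 46.2, 89.9, 98.4 and 65.2 RPM in PM-OVA against 45.0 to 199 (median 59.8) and 3.95 to 12.5 (median 5.01) RPM in PM. The neutrophil calprotectin subunits S100a8 and S100a9 overlapped between groups (-0.44 and -0.24), and the chemokine receptor Cxcr2 fell (5.24, 1.62, 1.33 and 0.545 RPM against 4.23 to 32.6 (median 16.9) RPM, log2 fold change -2.73 ± 0.55 (SE), adjusted p = 0.001). Car4 did not pass without PM replicate 5 (0.93), nor did it without PM-OVA replicate 3 or 4, where the fold change was 0.99 and 0.97.

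Antigen presentation by MHC class II rose in 10 of 13 genes, with 0 lower and a median log2 fold change of 1.70. H2-Ab1, the beta chain of I-A, stood at 791, 908, 1052 and 1098 RPM in PM-OVA and 169 to 258 (median 199) RPM in PM, log2 fold change 2.25 ± 0.15 (SE), adjusted p = 7.16e-07. H2-Eb1, the beta chain of I-E, stood at 784, 1043, 1351 and 1050 RPM and 166 to 224 (median 186) RPM, log2 fold change 2.42 ± 0.15 (SE), adjusted p = 5.93e-07. Cd74, the invariant chain, stood at 4426, 4203, 2941 and 2638 RPM and 869.8 to 1325 (median 1032) RPM, log2 fold change 1.70 ± 0.19 (SE), adjusted p = 4.06e-05. In each of these genes the lowest challenged library was above the highest control. Of 15 dendritic cell genes 6 rose, with Batf3, a transcription factor of cross-presenting dendritic cells also induced in activated T cells, at 11.4, 22.5, 35.4 and 32.9 RPM against 0.79 to 2.20 (median 1.25) RPM (log2 fold change 3.65 ± 0.31 (SE), adjusted p = 5.00e-06). Irf8 and Zbtb46, which define conventional dendritic cells, were not called (-0.33 and -0.59).

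Of 16 genes of CD4, Th2 and regulatory T cells 6 rose and 1 fell, or 6 and 4 without PM-OVA replicate 1. Gata3, the Th2 transcription factor, measured 24.5, 34.5, 44.9 and 56.7 RPM in PM-OVA and 6.75 to 24.1 (median 10.5) RPM in PM, log2 fold change 1.65 ± 0.31 (SE), adjusted p = 0.000682. Pdcd1 (PD-1) measured 15.1, 16.6, 17.7 and 8.90 RPM and 0.922 to 2.26 (median 1.38) RPM, log2 fold change 2.95 ± 0.24 (SE), adjusted p = 3.71e-06. Cd4 rose by 1.18 and the pan-T cell gene Cd3e had a log2 fold change of 0.59, too small for a call. Gata3 was lowest in PM-OVA replicate 1, at 24.5 RPM, just above the highest PM library. NK and CD8 T cell genes gave 0 of 14 higher and 5 lower (0 and 3 after median-of-ratios scaling, 0 and 3 after removal of the length trend). Ncr1, a receptor of NK cells, fell from 9.84 to 16.8 (median 12.2) RPM to 7.53, 4.33, 3.19 and 0.182 RPM, log2 fold change -2.09 ± 0.50 (SE), adjusted p = 0.00298, and Prf1, perforin, from 22.4 to 43.2 (median 27.4) RPM to 21.8, 12.8, 8.76 and 4.72 RPM, log2 fold change -1.37 ± 0.32 (SE), adjusted p = 0.00245. Both were lower in the shallower challenged libraries.

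Among 18 complement genes 7 rose and 4 fell (9 and 3 after median-of-ratios scaling, 7 and 4 after removal of the length trend). C3, the central component, rose from 280.5 to 477 (median 409.8) RPM to 1835, 1068, 979 and 1222 RPM, log2 fold change 1.70 ± 0.20 (SE), adjusted p = 5.18e-05, with replicate 1 highest. In the leukotriene and prostaglandin list 5 of 15 rose and 1 fell. Alox15, the 12/15-lipoxygenase of eosinophils and macrophages, rose from 0.469 to 14.2 (median 3.16) RPM to 34.5, 35.0, 16.9 and 23.4 RPM, log2 fold change 2.80 ± 0.56 (SE), adjusted p = 0.00093. Ptgis, prostacyclin synthase, rose from 75.4 to 109 (median 83.8) RPM to 132, 200.4, 428 and 516 RPM, log2 fold change 1.66 ± 0.31 (SE), adjusted p = 0.000599, and was highest in replicates 3 and 4. Ptgdr2, the prostaglandin D2 receptor of Th2 cells and eosinophils, fell from 1.33 to 2.41 (median 1.65) RPM to 0.403, 0.386, 0.133 and 0 RPM, log2 fold change -1.65 ± 0.21 (SE), adjusted p = 9.06e-05. Interferon-stimulated genes were higher in 2 of 16 and lower in 2, a share of falls below that of all genes (2 and 2 after median-of-ratios scaling, 1 and 2 after removal of the length trend, 2 and 4 without PM-OVA replicate 1). Zbp1, a nucleic acid sensor, rose (1.23), and Ifit2, an inhibitor of viral translation, fell from 40.5 to 64.1 (median 59.1) RPM to 18.5, 11.4, 3.19 and 0.908 RPM, log2 fold change -3.26 ± 0.53 (SE), adjusted p = 0.000303.

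Proliferation genes were higher, 14 of 19 for mitosis and 9 of 22 for DNA replication, with 0 lower in both. After median-of-ratios scaling 15 and 15 rose, and after removal of the length trend 18 and 16. Cdk1, the mitotic kinase, measured 18.7, 21.6, 40.9 and 51.4 RPM in PM-OVA and 1.38 to 12.7 (median 3.30) RPM in PM, log2 fold change 2.88 ± 0.45 (SE), adjusted p = 0.000231. Rrm2, a subunit of ribonucleotide reductase, measured 14.3, 15.5, 13.5 and 24.5 RPM and 1.58 to 7.34 (median 2.39) RPM, log2 fold change 2.46 ± 0.33 (SE), adjusted p = 9.65e-05. The highest PM value of both was that of PM replicate 5, below every challenged library. Without PM replicate 5 the mitosis count stayed at 14 and the DNA replication count was 11. Without PM-OVA replicate 1 the mitosis count was 12 higher and 1 lower and the DNA replication count 10 higher and 2 lower. Mki67, a long transcript, split the challenged libraries (74.2, 12.2, 1.19 and 0.363 RPM against 10.6 to 40.3 (median 16.5) RPM), and its log2 fold change of -1.61 did not pass (adjusted p = 0.142).

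**Figure D3:**
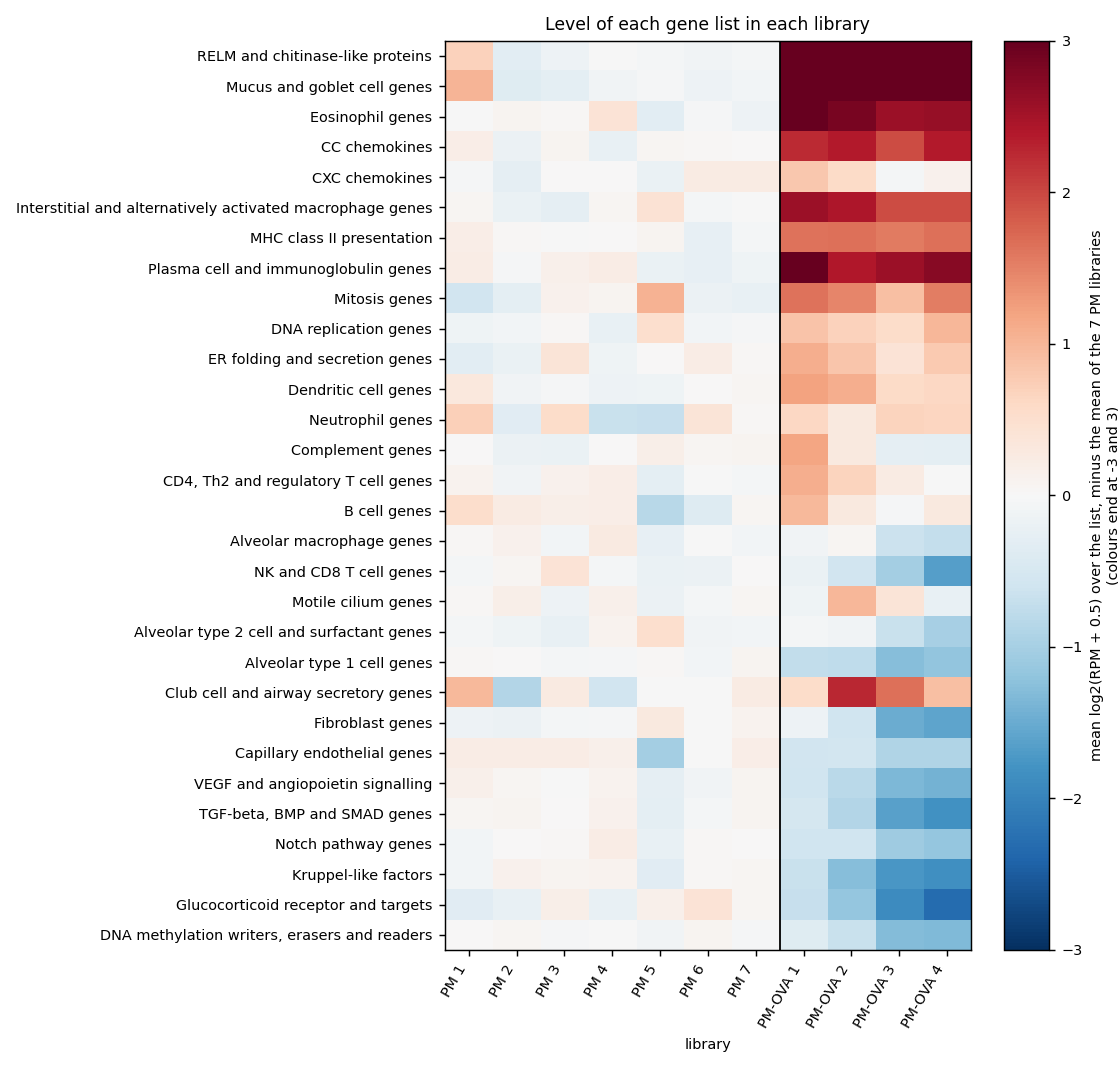
Mean log2(RPM + 0.5) of the tested members of each gene list in each library, minus the mean of the 7 PM libraries, as colour (red higher, blue lower, ends at -3 and 3). Most upper rows are red in all 4 PM-OVA libraries, but CXC chemokines in PM-OVA 3 and complement genes in PM-OVA 3 and 4 lie below the PM mean. Many lower rows are palest in PM-OVA 1 or 2 and darkest in PM-OVA 3 and 4, whereas the club cell row is red in all 4. PM 5 stands out among the controls in the mitosis and capillary endothelial rows.

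Airway secretory genes were higher in 4 of 11 and lower in 3 (4 and 1 after median-of-ratios scaling, 4 and 3 after removal of the length trend, 4 and 1 without PM-OVA replicate 1). On the RPM scale their share of falls was below the 29.2% of all genes. Bpifb1, an antimicrobial secretory protein of airways, rose from 0.395 to 13.8 (median 2.82) RPM to 102, 271, 665 and 385 RPM, log2 fold change 6.70 ± 0.68 (SE), adjusted p = 1.82e-05. Slpi, a secreted protease inhibitor, rose from 19.3 to 35.9 (median 25.3) RPM to 2856, 3749, 7634 and 9797 RPM, log2 fold change 7.69 ± 0.30 (SE), adjusted p = 1.08e-08, with replicates 3 and 4 highest. Cyp2f2, the cytochrome P450 that marks club cells, fell from 1128 to 2157 (median 1702) RPM to 301, 1377, 788 and 569.6 RPM, log2 fold change -1.33 ± 0.33 (SE), adjusted p = 0.00333. After median-of-ratios scaling the fold change of Cyp2f2 was -0.94 and not called. Scgb1a1, the club cell secretoglobin, spread widely over the challenged libraries (5419, 31944, 25274 and 19822 RPM) around the PM range of 13640 to 22620 (median 17060) RPM. Replicate 1 lay below every PM library and replicates 2 and 3 above them, and the log2 fold change was -0.03 ± 0.44 (adjusted p = 0.96) on the RPM scale and 1.02 after median-of-ratios scaling without replicate 1. Foxj1, the master factor of ciliated cells, was likewise highest in replicates 2 and 3, at 109, 255, 215 and 145 RPM against 77.1 to 94.6 (median 87.6) RPM. Of 18 cilium genes 3 rose and 2 fell on the RPM scale, and 7 rose and 2 fell after median-of-ratios scaling or without PM-OVA replicate 1, against 6 and 1 after removal of the length trend. Cyp2f2 came to -0.96 and Foxj1 to 1.19 without PM-OVA replicate 1, the former losing and the latter gaining a call.

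Alveolar type 1 genes gave 1 of 12 higher and 5 lower, with a median log2 fold change of -0.97 (1 and 4 after median-of-ratios scaling, 0 and 5 after removal of the length trend). Emp2, a tetraspan membrane protein, measured 981, 844, 583 and 766 RPM in PM-OVA and 1711 to 2092 (median 1946) RPM in PM, log2 fold change -1.29 ± 0.17 (SE), adjusted p = 8.26e-05. Clic5, an intracellular chloride channel protein, measured 449.8, 313, 118 and 103 RPM and 973 to 1587 (median 1473) RPM, log2 fold change -2.78 ± 0.35 (SE), adjusted p = 7.42e-05. The study's supplement lists Clic5 among genes selectively expressed in endothelial cells, and its PM minimum was PM replicate 5. Its fall is therefore not assigned to type 1 cells. Neither Emp2 nor Clic5 overlapped with PM, and Clic5 was lowest in the shallow replicates 3 and 4. Ager, the receptor RAGE and the most abundant of these genes by RPM, stood at 1677, 2390, 2671 and 2386 RPM against 1511 to 2272 (median 1675) RPM and was not called (0.40, adjusted p = 0.0681). Alveolar type 2 and surfactant genes gave 1 of 14 higher and 2 lower (3 and 2 after median-of-ratios scaling, 1 and 2 after removal of the length trend). Sftpc stood at 13569, 21678, 31953 and 27004 RPM in PM-OVA, log2 fold change 1.14 ± 0.33 (SE), adjusted p = 0.00908. Its lowest challenged library lay within the PM range, whose top value was PM replicate 5, and without that library the fold change was 1.29. Lamp3, a lamellar body membrane protein, fell from 223 to 332 (median 257) RPM to 135, 40.6, 2.52 and 1.82 RPM, log2 fold change -4.25 ± 0.88 (SE), adjusted p = 0.00121. Emp2 came to -0.90 after median-of-ratios scaling and was then not called. Sftpc was not called without PM-OVA replicate 3 (0.97) or after removal of the length trend (0.67).

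Capillary endothelial genes fell more often than they rose, 9 of 15 with 1 higher and a median log2 fold change of -1.27. The count was 6 lower and 3 higher after median-of-ratios scaling, 3 lower and 1 higher after removal of the length trend, and 9 lower and 0 higher without PM replicate 5. Tek, the angiopoietin receptor, measured 159, 169, 70.4 and 61.0 RPM in PM-OVA and 121 to 578 (median 531) RPM in PM, log2 fold change -2.03 ± 0.43 (SE), adjusted p = 0.00134. Cdh5, the endothelial cadherin, measured 640.3, 533, 332 and 284 RPM and 459.9 to 1440 (median 1390) RPM, log2 fold change -1.46 ± 0.33 (SE), adjusted p = 0.00194. In both the PM minimum was PM replicate 5, which overlapped with the challenged libraries while the other controls did not, and without it the log2 fold changes were -2.33 and -1.69. The endothelial genes Pecam1, Plvap and Cldn5 were not called (0.06, 0.12 and 0.49), and all 3 overlapped with PM. In VEGF and angiopoietin signalling 1 of 15 rose and 8 fell (1 and 5 after median-of-ratios scaling, 1 and 5 after removal of the length trend). Vegfa, the ligand made by alveolar epithelium, fell from 1022 to 1396 (median 1290) RPM to 454, 344, 183 and 159 RPM, log2 fold change -2.24 ± 0.25 (SE), adjusted p = 4.02e-05, and Nrp1, its coreceptor, from 125 to 272 (median 255) RPM to 59.2, 53.8, 35.2 and 25.6 RPM, log2 fold change -2.46 ± 0.26 (SE), adjusted p = 2.22e-05. Neither overlapped with PM, and both were lowest in replicates 3 and 4. Icam1, an adhesion molecule for leukocytes, fell (-1.20, adjusted p = 0.000337), as the 1 call among 7 venous and adhesion genes. Cdh5 came to -0.99 after removal of the length trend and Icam1 to -0.81 after median-of-ratios scaling, both below the fold required.

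Fibroblast genes rose in 1 of 16 and fell in 7 (1 and 7 after median-of-ratios scaling, 1 and 5 after removal of the length trend). Npnt, the integrin ligand nephronectin, measured 719, 285, 103 and 81.7 RPM in PM-OVA and 1060 to 1441 (median 1274) RPM in PM, log2 fold change -2.61 ± 0.46 (SE), adjusted p = 0.000426. Limch1, an actomyosin regulator, measured 671, 389.8, 223 and 219 RPM and 1012 to 1219 (median 1185) RPM, log2 fold change -1.77 ± 0.26 (SE), adjusted p = 0.000181. Col14a1, a fibril-associated collagen, rose from 35.8 to 54.6 (median 41.1) RPM to 107, 87.6, 66.9 and 102 RPM, log2 fold change 1.11 ± 0.16 (SE), adjusted p = 0.000145. Npnt and Limch1 were lowest in the shallow replicates 3 and 4, while Col14a1 lay above PM in all 4. In the matrix list 2 of 20 rose and 7 fell (3 and 2 after median-of-ratios scaling, 3 and 1 after removal of the length trend). Timp1, an inhibitor of metalloproteinases, rose from 3.07 to 37.9 (median 4.40) RPM to 31.3, 34.2, 69.6 and 129 RPM, log2 fold change 3.21 ± 0.60 (SE), adjusted p = 0.00064. The upper PM value of Timp1 was that of PM replicate 5, above PM-OVA replicates 1 and 2, and without it the fold change was 3.66. Smooth muscle genes gave 1 higher and 2 lower of 11, but 3 and 0 after median-of-ratios scaling, 2 and 0 after removal of the length trend and 3 and 2 without PM-OVA replicate 1. Limch1 came to -0.83 after removal of the length trend.

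TGF-beta, BMP and SMAD genes were lower in 17 of 27, with 0 higher and a median log2 fold change of -1.31. The counts were 12 lower and 3 higher after median-of-ratios scaling, 9 lower and 0 higher after removal of the length trend, and 18 lower and 0 higher without PM replicate 5. Tgfbr2, the ligand-binding receptor, measured 301, 158, 47.3 and 28.1 RPM in PM-OVA and 432 to 509.6 (median 457) RPM in PM, log2 fold change -2.37 ± 0.48 (SE), adjusted p = 0.0011. Bmpr2, the type II BMP receptor, measured 361, 376, 166 and 169.6 RPM and 360.0 to 1289 (median 1228) RPM, log2 fold change -2.06 ± 0.37 (SE), adjusted p = 0.000487. Smad9, a mediator of BMP signals, measured 7.93, 4.10, 1.33 and 0.545 RPM and 12.4 to 26.8 (median 22.3) RPM, log2 fold change -2.89 ± 0.45 (SE), adjusted p = 0.000248. Tgfbr2 and Smad9 did not overlap with PM and were lower in the shallower challenged libraries, and Bmpr2 overlapped with PM replicate 5 alone, without which its fold change was -2.32. The ligand gene Tgfb1 had values of 134, 127, 174 and 202 RPM against 70.0 to 102 (median 93.1) RPM, above PM in each library, and its log2 fold change of 0.82 passed 1 after median-of-ratios scaling (1.21). Notch pathway genes gave 0 of 17 higher and 8 lower (0 and 4 after median-of-ratios scaling, 0 and 3 after removal of the length trend). Notch1 measured 163, 121, 80.3 and 80.4 RPM and 190.4 to 281 (median 262) RPM, log2 fold change -1.25 ± 0.20 (SE), adjusted p = 0.000244. After median-of-ratios scaling Notch1 stood at -0.86, and after removal of the length trend Bmpr2 stood at -0.63, neither being called.

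The glucocorticoid receptor and its targets fell in 7 of 11, with 0 higher and a median log2 fold change of -1.47. The count of 7 held after median-of-ratios scaling and was 5 after removal of the length trend. Nr3c1, the receptor, measured 161, 81.2, 17.4 and 22.2 RPM in PM-OVA and 215 to 360.4 (median 346) RPM in PM, log2 fold change -2.75 ± 0.48 (SE), adjusted p = 0.000437. Zbtb16, a steroid-induced transcription factor, measured 18.4, 4.71, 3.32 and 0.545 RPM and 13.4 to 195 (median 112) RPM, log2 fold change -3.86 ± 0.86 (SE), adjusted p = 0.00193. Nr3c1 did not overlap with PM, and Zbtb16 spread over the controls as widely as over the challenged libraries. Kruppel-like factors rose in 1 of 14 and fell in 8 (2 and 6 after median-of-ratios scaling, 1 and 5 after removal of the length trend). Klf4 fell from 23.5 to 117 (median 86.5) RPM to 35.1, 2.40, 0.398 and 0 RPM, log2 fold change -4.81 ± 0.90 (SE), adjusted p = 0.000646, and PM-OVA replicate 1 alone lay within the PM range. Klf2, a shear-induced factor of endothelium and lymphocytes, rose from 125 to 425 (median 229) RPM to 245, 333, 1471 and 1534 RPM, log2 fold change 1.50 ± 0.50 (SE), adjusted p = 0.0185, with the rise in replicates 3 and 4. Immediate early genes gave 1 higher and 4 lower of 16 (2 and 3 after median-of-ratios scaling, 0 and 3 after removal of the length trend), with Fos at 60.5, 70.8, 12.9 and 11.4 RPM against 56.0 to 197 (median 83.6) RPM (log2 fold change -1.79 ± 0.52 (SE), adjusted p = 0.00902). Klf2 was not called without PM-OVA replicate 3 or 4 (1.11 and 1.09, with adjusted p above 0.05).

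Genes that answer to pollutants and oxidants, the aryl hydrocarbon receptor and NRF2 list, gave 1 higher and 7 lower of 16 on the RPM scale, 1 and 2 after median-of-ratios scaling and 1 and 1 after removal of the length trend. Slc7a11, the cystine transporter, rose from 1.94 to 4.33 (median 2.28) RPM to 10.8, 10.9, 6.11 and 3.63 RPM, log2 fold change 1.32 ± 0.30 (SE), adjusted p = 0.00195. Ahr, the receptor, measured 73.5, 74.1, 29.7 and 41.6 RPM and 70.1 to 187 (median 139) RPM, and its fall (-1.35) was -0.96 after median-of-ratios scaling. DNA methylation genes gave 1 higher and 7 lower of 14 (2 and 5 after either correction). Tet1, a demethylating dioxygenase, fell from 5.93 to 12.8 (median 10.8) RPM to 2.96, 2.01, 0.664 and 0 RPM, log2 fold change -2.82 ± 0.43 (SE), adjusted p = 0.000226. The CCR4-NOT complex of mRNA deadenylation gave 0 higher and 7 lower of 15 (1 and 4 after median-of-ratios scaling, 0 and 4 after removal of the length trend), with its scaffold Cnot1 at 19.5, 7.42, 3.98 and 3.63 RPM against 41.1 to 53.0 (median 48.3) RPM (log2 fold change -2.70 ± 0.34 (SE), adjusted p = 7.33e-05).

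Markers of tissue outside the airways were measured beside these groups. Cardiac muscle genes gave 0 higher and 3 lower of 10 (1 and 2 after median-of-ratios scaling, 0 and 3 after removal of the length trend), with the heavy chain Myh6 of pulmonary vein muscle at 3.56, 0.541, 0.266 and 0 RPM against 15.8 to 65.3 (median 23.6) RPM (log2 fold change -4.66 ± 0.54 (SE), adjusted p = 4.77e-05). Adipocyte genes gave 1 higher and 4 lower of 6 (1 and 3 after median-of-ratios scaling, 0 and 4 after removal of the length trend). Red blood cell genes summed to 1281, 1979, 2914 and 2766 RPM in PM-OVA and 551 to 1348 RPM in PM, and Hbb-bs, adult beta globin, rose (1.37, adjusted p = 0.00145). Of the thymus and lymph node genes 3 were tested and 1 rose, the thymic serine protease Prss16 (4.90, 1.70, 1.86 and 4.36 RPM against 0.244 to 0.763 (median 0.467) RPM). Skeletal muscle genes gave 2 higher and 0 lower of 6. The part of these tissues in the differences above was not tested.

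Cell machinery lists differed in their balance of rises and falls. Nuclear genes of the respiratory chain were higher in 23 of 77 and lower in 7, proteasome subunits in 10 and 4 of 35, and V-ATPase subunits in 5 and 2 of 19. Ribosomal protein genes were higher in 4 and lower in 18 of 73, a share of falls below the 29.2% of all genes. Their median log2 fold change was -0.40 against -0.45 over all genes. Summed, they stood at 1549, 1610, 1491 and 1791 RPM in PM-OVA replicates 1 to 4 and 1044 to 1209 RPM in PM. After median-of-ratios scaling 5 were higher and 8 lower. After the same scaling the respiratory chain counts were 35 and 6, the proteasome counts 13 and 2 and the V-ATPase counts 10 and 1. After removal of the length trend they were 14 and 7, 14 and 3 and 11 and 2, and 3 and 23 for ribosomal protein genes. Without PM-OVA replicate 1 the V-ATPase counts were 9 and 2 and the ribosomal counts 4 and 28. Psmb8, a subunit of the immunoproteasome, rose from 49.7 to 76.1 (median 59.0) RPM to 141, 157, 205 and 238 RPM, log2 fold change 1.56 ± 0.17 (SE), adjusted p = 2.68e-05. Ndufa3, a complex I subunit, rose from 14.5 to 28.0 (median 17.8) RPM to 39.3, 102, 339 and 449 RPM, log2 fold change 3.07 ± 0.52 (SE), adjusted p = 0.000358. Both were higher in the shallower challenged libraries. Nuclear long non-coding RNAs gave 0 higher and 3 lower of 6, 1 higher and 2 lower after median-of-ratios scaling and 2 higher and 0 lower after removal of the length trend, with Neat1 at 1477, 1194, 599 and 579.9 RPM against 1538 to 3529 (median 2058) RPM. Neat1 came to -0.93 after median-of-ratios scaling and to -0.10 after removal of the length trend.

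The largest falls were found in genes that PM-OVA replicates 3 and 4 had almost lost. Ston1, an endocytic adaptor, fell from 33.1 to 71.5 (median 59.2) RPM to 7.995, 0.618, 0.133 and 0 RPM, log2 fold change -5.41 ± 0.60 (SE), adjusted p = 3.27e-05. Atp7a, a copper transporter (chromosome X, 106027276 to 106124926), fell from 19.8 to 30.8 (median 27.7) RPM to 1.75, 0.232, 0 and 0 RPM, log2 fold change -5.08 ± 0.35 (SE), adjusted p = 9.64e-07. Akap12, a scaffold of protein kinase A, fell from 189 to 389 (median 372) RPM to 121, 15.2, 3.32 and 0.726 RPM, log2 fold change -5.05 ± 0.89 (SE), adjusted p = 0.000443. In all 3 genes replicate 1 was the highest challenged library and replicate 4 the lowest or level with replicate 3. Among the 4 genes that fell at the study's threshold, Sec14l4, a lipid-binding protein (chromosome 11, 4031462 to 4048024), was even across the challenged libraries instead, at 16.7, 14.4, 14.9 and 15.3 RPM against 57.6 to 73.8 (median 67.9) RPM, log2 fold change -2.08 ± 0.12 (SE), adjusted p = 2.20e-07. The other members of the 4 were Atp7a and the annotated genes Gm43300 and Gm38393, the latter with no read in PM-OVA and at least 3.64-fold lower. Replicate 1 alone kept an appreciable level of several genes called lower, among them C7, a terminal complement component, at 115, 10.7, 1.19 and 1.09 RPM, Smo, the Hedgehog signal transducer, at 11.9, 0.541, 0 and 0 RPM, and Zfp36l2, an mRNA decay factor, at 200.4, 20.8, 11.8 and 8.72 RPM.

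The difference among the challenged libraries was general. The median log2 difference of genes called lower from the PM mean was -0.66, -1.18, -2.12 and -2.25 in PM-OVA replicates 1 to 4, and that of genes called higher 0.83, 1.42, 1.81 and 1.87. Over all genes it was -0.10, -0.20, -0.71 and -0.81, so the shallow replicates 3 and 4 departed most from PM. Differences also declined with transcript length. Genes were divided into 5 equal groups by length, and from the shortest (154 to 1851 bases) to the longest (5138 bases and above), the median log2 fold change went from 0.18 to -1.03, the share called lower from 13.2% to 51.0% and the share called higher from 22.2% to 2.37%. The shortest group exceeded the longest by 0.68, 1.27, 1.57 and 1.45 in PM-OVA replicates 1 to 4 and by -0.15 to 0.13 in the PM libraries. In Sham-OVA against Sham the median log2 fold change likewise went from 0.15 in the shortest group to -1.06 in the longest. With each library thinned to 4324326 reads, 1939 genes were called higher and 4045 lower. Length and the challenge run together in these libraries, and the parts of length, depth and the challenge in the falls were not tested.

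**Figure D4:**
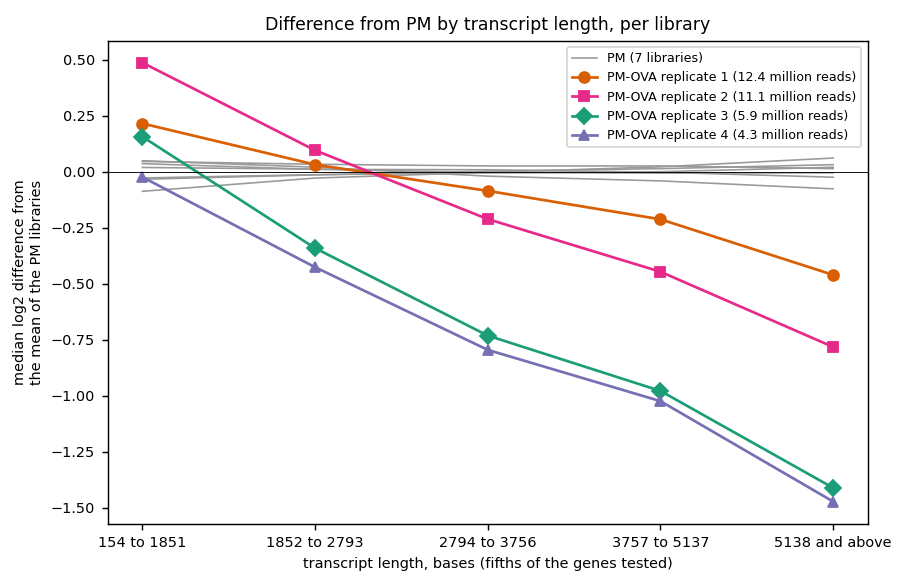
Median log2 difference of each library from the mean of the 7 PM libraries, in 5 equal groups of genes by transcript length in bases. PM libraries (grey) lie near 0 at every length, and all 4 PM-OVA libraries decline with length, from 0.49 at the top of replicate 2 to -1.47 at the bottom of replicate 4.

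The remaining genes past the study's threshold were rises spread over several functions, and they were singled out after their values had been seen. Tnfrsf9 (4-1BB), a costimulator of activated T cells, measured 29.5, 32.8, 40.2 and 41.2 RPM in PM-OVA and 1.16 to 2.64 (median 1.53) RPM in PM, log2 fold change 4.06 ± 0.23 (SE), adjusted p = 2.39e-07. Duoxa1, the maturation factor of the hydrogen peroxide-producing oxidase Duox1, measured 3.83, 4.33, 3.19 and 2.54 RPM and at most 0.122 RPM, and Duox1 itself 3.83, 4.10, 4.91 and 3.45 RPM and at most 0.244 RPM. Msx3, a homeobox gene, had no read in PM and was at least 21.3-fold higher. Blnk, a linker of B cell receptor signals, rose from 3.60 to 5.99 (median 5.27) RPM to 51.5, 55.3, 74.1 and 101 RPM, log2 fold change 3.65 ± 0.21 (SE), adjusted p = 2.98e-07. The 43 genes did not overlap between groups, which their selection from the same libraries at this threshold makes likely. Of the 47 genes past the threshold in either direction, 19 belonged to a list described above.

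Circadian clock genes gave 3 higher and 4 lower of 18 (3 and 2 after median-of-ratios scaling, 1 and 0 after removal of the length trend), and the hour at which lungs were collected was not given in the sources used here. Bhlhe40, a repressor of the clock that is also induced in activated T cells and macrophages, rose from 61.2 to 205 (median 106) RPM to 231, 219.9, 345 and 446 RPM, log2 fold change 1.41 ± 0.29 (SE), adjusted p = 0.00103, above PM in each challenged library. Dbp, a clock output factor, spread widely in both groups, at 69.3, 219.9, 215 and 152 RPM in PM-OVA and 17.6 to 154 (median 48.1) RPM in PM (log2 fold change 1.41 ± 0.55 (SE), adjusted p = 0.0362), and it lost its call when any one of PM-OVA replicates 2, 3 and 4 or PM replicates 1, 3, 4 and 6 was left out. Clock, one of the core activators, fell from 89.7 to 140.2 (median 119.6) RPM to 66.6, 42.7, 31.1 and 31.4 RPM, log2 fold change -1.52 ± 0.21 (SE), adjusted p = 0.000111, and its fold change was -0.13 after removal of the length trend. Genes encoded by the mitochondrial genome gave 1 higher and 2 lower of 7 tested, also after either correction, and the other 6 are listed at 0 in all 11 libraries. The abundant subunit mt-Nd1 overlapped between groups at 6544, 4901, 3133 and 3363 RPM and 3432 to 6932 (median 4091) RPM. The gene that rose, mt-Nd6, is the one protein-coding gene of the opposite strand, at 11.8, 17.4, 50.6 and 88.4 RPM against 6.44 to 10.1 (median 6.74) RPM (log2 fold change 2.00 ± 0.43 (SE), adjusted p = 0.00154), and it was highest in replicates 3 and 4.

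The response in offspring of saline dams was set beside these values as the test of what depended on maternal exposure. Sham and Sham-OVA libraries share no sample with the comparison above. Sham replicate 1 went against its female label, with Xist at 0.289 RPM and the Y-linked gene Ddx3y at 123 RPM. All 47 genes past the study's threshold were called in the same direction in Sham-OVA, as were 85.2% of the higher and 89.4% of the lower genes. Over all 16077 genes the Sham-OVA comparison called 10.9% higher and 31.7% lower. Both comparisons declined with transcript length, and the part of length in their agreement cannot be told apart from that of the challenge. The interaction of maternal exposure and OVA, fitted with limma over all 23 libraries and 16795 genes, was called at an adjusted p under 0.05 for 0 genes (0.0%), with 854 at an unadjusted p under 0.05 and a smallest adjusted p of 0.592. It came to 6 genes with Sham-OVA replicate 5 left out, to 1 with PM-OVA replicate 2 left out and to 0 without each of the other libraries. Sham-OVA replicate 3 was the shallowest of the 23 libraries, with 2298645 reads on genes. Without it 1965 genes had an unadjusted p under 0.05. With so few challenged libraries, the lack of calls does not show that the response was the same in both kinds of offspring. The smallest unadjusted p values belonged to Mycbpap, which interacts with Myc-binding protein (log2 fold change 0.06 in PM and -1.35 in Sham offspring), the lipid desaturase Scd1 (-0.44 and 0.86) and Ahcy, an enzyme of the methionine cycle (0.43 and 1.61). Motile cilium genes gave 0 higher and 7 lower in Sham offspring against 3 and 2 here, and circadian clock genes 1 and 9 against 3 and 4, but none of their members passed the interaction test.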

How the data were processed

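Poly(A) RNA of mouse lung was sequenced from stranded mRNA libraries. Per the study's methods the authors trimmed reads with Trimmomatic, mapped them to GRCm38 (mm10) with Bowtie2 and SAMtools and quantified genes in SeqMonk, and the submitters' processing notes name bcl2fastq. Bowtie2 does not split reads over introns, so reads across exon junctions may be lost, and which feature of a gene was counted was not given in the sources used here. The deposited table is named for RPKM, but 100% of its values were whole multiples of 1 read per library (tolerance 0.01 reads), so the values deposited by the authors were taken as RPM, and read numbers were worked back from them. The values of a library did not sum to a common total. The study ran DESeq2 on raw counts, and the comparisons here were planned for normalised values.

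Groups followed the labels. Levels were set as log2(RPM + 0.5), kept for 16077 genes at 0.5 RPM or more in at least 4 of 11 libraries, and tested with limma 3.58.1 (trend) in R 4.3.3, with Benjamini-Hochberg adjustment. On simulated counts of 15690 genes drawn for PM-OVA against PM, with 200 genes changed, limma, edgeR 4.0.16 and DESeq2 1.42.0 each recovered 100 of 100 genes at a log2 fold of 2 and 100 of 100 at 3, with 0, 1 and 0 false calls. The simulation changed only genes with a PM mean of at least 5 RPM and gave both groups the same added noise, without a length trend. In the real libraries the median SD of a gene on the log2 scale was 0.198 in PM and 0.543 in PM-OVA. The recovery therefore checks that the tools ran correctly and does not measure their sensitivity in these data. The members and gene lists were chosen with earlier results of these data known. The genes named were the 12 largest non-overlapping rises and 12 largest falls with a mean of at least 10 RPM, all falls at the study's threshold, the 4 most abundant members and the largest rise and fall of each list, the 6 genes with the largest gap above the other PM and the 6 above the other PM-OVA libraries, and the 3 smallest interaction p-values. Not all of these are described, and further genes were named after their values had been seen.

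Alternatives were other pseudocounts (0.1 and 1), filters (none, or a mean of 5 RPM), median-of-ratios scaling, quantile normalisation, all 23 libraries in 1 fit, array weights, a replicate block, DESeq2 and edgeR on the recovered reads, thinning to 4324326 reads, subtraction of the dependence on transcript length and GC content in each library (known for 15838 genes), and leaving out each library. DESeq2 and median-of-ratios scaling without PM-OVA replicate 1, scaling to reads on genes, and list counts without PM replicates 1 and 5, were chosen after seeing the data. A bound on a fold against a group with no read used 3 reads in 1 library, which covers counting error only. Coordinates are from the GENCODE annotation of GRCm38 and sequences from RefSeq, with chromosome 18 not used. Tables and figures were made with Python 3.11.15, numpy 2.4.6, pandas 2.3.3 and matplotlib 3.10.9. A few genes are not reported here. The symbol Ptp4a1 is listed 2 times. The DNA methylation data of the study were not used here.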

Additional observations from a re-analysis of the deposited data

Results flagged for a closer look

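Among 431 sets of values (each gene or list named, in PM or in PM-OVA), 53 held a library whose gap to its nearest neighbour was large against the range of its group by Dixon's criterion. Chance alone gives about 1 in 20 for genes chosen without regard to such gaps, a rate that does not hold here because some genes were named for their gap or extreme value. The share of the range is given for each, and 36 of the 53 concerned PM replicate 5. That library was the lowest of the 7 PM libraries for the endothelial genes Bmpr2 (0.946), Cdh5 (0.872), Tek (0.867), Cldn5 (0.844), Pecam1 (0.82), Car4 (0.742), Kit (0.742), Nrp1 (0.735), Plvap (0.669) and Smad9 (0.657), with the capillary list mean at 0.813 and the venous list mean at 0.602. It was also lowest for Nr3c1 (0.784), Clic5 (0.7), Atp7a (0.67), Il4ra (0.666), Notch1 (0.654), Chia1 (0.642), Cyp2f2 (0.605), Akap12 (0.598) and Ifit2 (0.592) and for the mean of the aryl hydrocarbon and NRF2 list (0.635). It was highest for Timp1 (0.849), Sftpc (0.82), Lcn2 (0.79), Ager (0.713), Rrm2 (0.696), Chil1 (0.64), Cxcl15 (0.6) and Xist (0.585). The same held for the means of the lists of DNA replication (0.657), mitochondrially encoded genes (0.613), V-ATPase (0.606), matrix (0.582), alveolar type 2 cells (0.575) and mitosis (0.572).

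PM replicate 1 was the highest PM library for airway secretory genes, with shares of 1 for Capn9 and Chil4, 0.936 for Clca1, 0.77 for Fcgbp and 0.746 for Fer1l6, and for the list means of mucus (0.757) and RELM and chitinase-like genes (0.696). Capn9 and Chil4 stood there at only 0.0688 and 0.413 RPM, a single read for Capn9. PM replicate 4 was highest for Cd4 (0.577) and Col14a1 (0.608), PM replicate 6 highest for Il5 (0.727) and lowest for Mycbpap (0.583), and PM replicate 7 highest for Il13 (1), at 0.114 RPM.

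Among the challenged libraries, PM-OVA replicate 1 was lowest for Retnlb (0.871, at 2.15 RPM) and highest for Gm43300 (1, at 0.403 RPM). PM-OVA replicate 2 was highest for Tpsab1 (0.891) and Mycbpap (0.887) and lowest for the mean of the neutrophil list (0.891).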

How the results depend on the processing

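The count of genes past the study's threshold depended most on the processing. It was 47 as reported, 25 with a pseudocount of 0.1, 29 with no filter on low values, 24 with a mean of at least 5 RPM, 82 with quantile normalisation, 548 with all 23 libraries in one fit, 2782 with array weights and 2844 with DESeq2 on the recovered reads. Leaving out 1 library gave 15 to 493 genes, the highest without PM-OVA replicate 1, and without that library DESeq2 gave 4926 and median-of-ratios scaling 661, 2 settings chosen after seeing the data. The 1598 genes higher at an adjusted p under 0.05 became 2605 with median-of-ratios scaling, 2700 with quantile normalisation, 3050 with DESeq2 and 3029 with edgeR, and 3434 and 3136 with DESeq2 and median-of-ratios scaling without PM-OVA replicate 1. The 4694 lower became 2667 with quantile normalisation, 2181 after removal of the length and GC trend, 3004 with DESeq2 and 2833 with edgeR. Replicate numbers 1 to 4, taken from the sample titles, occur in both groups, but same-numbered libraries deviated from their group means with r of only -0.11 to 0.07, so they share a number and no pairing was assumed. The library names number 3 of the PM-OVA libraries as 4, 5 and 6 instead, and by those numbers r was 0.16, -0.07 and -0.07. The name of PM-OVA replicate 4, the shallowest challenged library, holds Rel1 in place of a number, and its meaning was not given in the sources used here. With the replicate block 0 genes passed the study's threshold, with 3 residual degrees of freedom, and 1600 were higher and 4598 lower at an adjusted p under 0.05. The interaction with maternal exposure was called for 0 to 6 genes when 1 library was left out, with 641 to 1965 genes at an unadjusted p under 0.05, and for 0 genes under the other alternatives. Of 160 genes named and tested 134 were called, and 79 of 85 higher and 29 of 49 lower genes kept their call under every alternative. Median-of-ratios scaling ended 0 of the higher and 9 of the lower calls, and removal of the length trend 5 and 12. The direction of Scgb1a1 turned without PM-OVA replicate 1, to 1.01 with DESeq2 and 1.02 with median-of-ratios scaling. The cause of these differences was not tested. In PM-OVA replicates 3 and 4 genes below 0.398 and 0.545 RPM rest on fewer than 3 reads.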
